A study of Rattus norvegicus with 6 samples.

Results

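The genes described here encode the receptors for corticosteroid hormones, proteins that help those receptors to fold or to activate transcription, an enzyme that regenerates active corticosteroid, and the corticotropin-releasing hormone (CRH) system. They were 9 genes, Nr3c1, Nr3c2, Fkbp5, Fkbp4, Hsd11b1, Crh, Crhr1, Crhbp and Ncoa1, listed by function. All 9 were found by symbol among 20155 genes with a single symbol on the array, which holds 29489 transcript clusters, and each had exactly 1 cluster. RNA came from the hippocampus of female Sprague-Dawley (SD) rats that entered the experiment at postnatal day 21, before the days of exposure. The noise group heard white noise of 2 to 20 kHz at 115 dB SPL for 4 hours a day over 3 days. The control group stayed in the same kind of chamber with a background of 40 to 60 dB SPL and heard no added noise. Rats of both groups were anesthetized with Zoletil and xylazine for a hearing test and killed with CO2. The methods place death 6 to 8 hours after that test, while the sample labels place it right after the last exposure. The labels call the tissue hippocampus, and the methods describe a dissection around dorsal CA3. There were 3 arrays per group, noise 2, 3 and 4 and control 1, 2 and 6 as labeled, and each carried RNA pooled from 2 rats, so that the spread between arrays is a spread between pools. The study asked which hippocampal genes had changed at the end of the exposure.

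Corticosterone, the main stress hormone of the rat, enters neurons and binds a pair of related receptors that act as transcription factors in the nucleus. The mineralocorticoid receptor binds it with high affinity and is abundant in hippocampal neurons, whereas the glucocorticoid receptor is occupied mainly when hormone levels are high, during stress or at the daily peak. CRH is the hypothalamic peptide that starts the hormonal stress response. It is also made by hippocampal interneurons, where it acts locally on its receptor. Each stage can be adjusted at the level of mRNA, which is what the arrays measured.

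Values are log2 signals after Robust Multi-Array Average (RMA) processing, with a median of 5.05 over all clusters and arrays, and 1 unit is a doubling of signal. Pearson's r between pairs of arrays, across clusters, lay between 0.981 and 0.9905. All 5 defining markers of hippocampal principal neurons that were listed (Prox1, Wfs1, Grik4, Neurod6 and Slc17a7) were above that median on every array. Of the full list of 15 principal cell markers, 3 averaged below it. The mean of these 15 lay between 7.54 and 7.73 on noise arrays and between 7.69 and 7.75 on control arrays, so that the groups overlapped. In contrast, the mean of 19 choroid plexus markers lay between 5.25 and 5.51 on noise arrays and between 5.89 and 7.54 on control arrays, and that of 17 thalamus and medial habenula markers lay between 5.49 and 5.75 on noise arrays and between 5.87 and 6.38 on control arrays. Of these lists 13 of 19 and 8 of 17 genes were lower at the thresholds given below, and none was higher. The lists were chosen with earlier results of these data known, and the study's own tables hold genes of both. The direction of these genes is therefore not independent evidence. The part of these tissues in the values that follow was not tested. The choroid plexus mean also varied among control arrays 1, 2 and 6, at 7.54, 6.84 and 5.89. In whole tissue, fewer cells of a type, in the animal or in the piece dissected, and less RNA per cell cannot be told apart.

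None of the 9 genes was higher and none was lower in the noise group when the study's limits (p up to 0.05 before adjustment, together with a change of 1.5-fold or more) were applied to limma, a linear model that pools the variance across clusters. Over all clusters 0.58% were higher and 0.882% lower at these thresholds, so that 0 of 9 does not stand apart from the background. At the unadjusted p alone, 0 of the 9 genes passed against 10.1% of all clusters. At a Benjamini-Hochberg adjusted p of 0.05, 0 passed against 0.0102%. The methods' t-test on the same values gave 0 of 9 at the thresholds, against 0.851% of all clusters in either direction, and 0 at the p alone. For no gene did all noise arrays lie on the same side of all control arrays, a pattern found in 8.45% of clusters for higher and 8.06% for lower noise values. Log2 fold changes lay between -0.07 and 0.23, with 3 above 0 and 6 below. Their median size without regard to sign was 0.07, and over all clusters it was 0.12. Only 1 of the 9 genes averaged below the median signal, and the clusters were not matched to them for signal. For 8 of the 9 genes the whole 95% interval of the change from limma lay inside a fold of 1.5 in either direction, that is, within 0.585 on the log2 scale, and Crhr1 was the exception. These intervals are not adjusted for the number of genes.

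**Figure D1:**
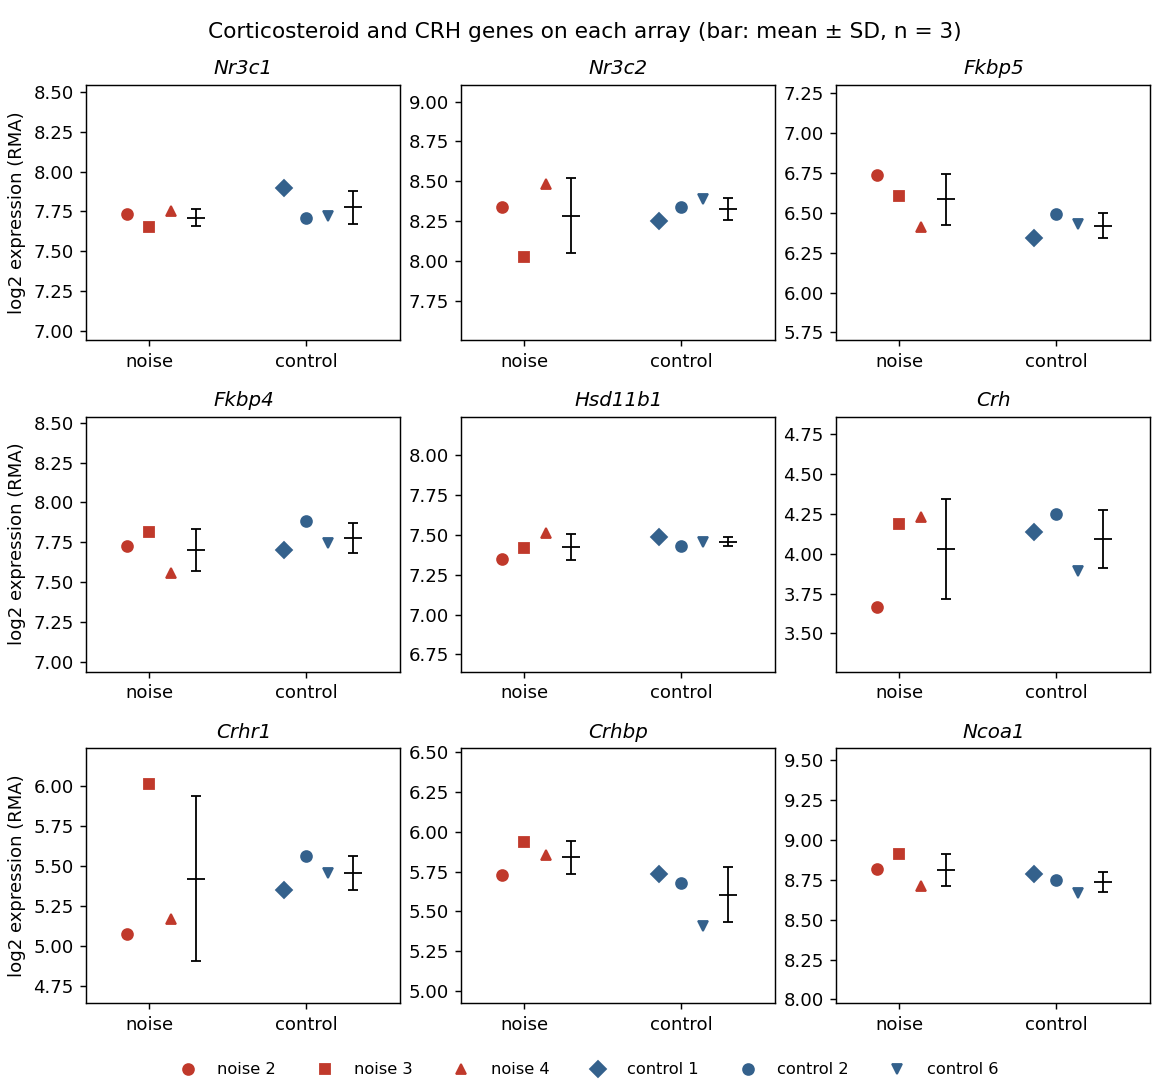
Log2 RMA expression of the 9 genes on each array, noise arrays in red on the left of each panel and control arrays in blue on the right, with a symbol per array and a black bar for the mean ± SD (n = 3 arrays). All panels span the same height, and in every panel the groups overlap. The widest scatter is that of Crhr1 in the noise group, at 5.07, 6.02 and 5.17.

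**Figure D2:**
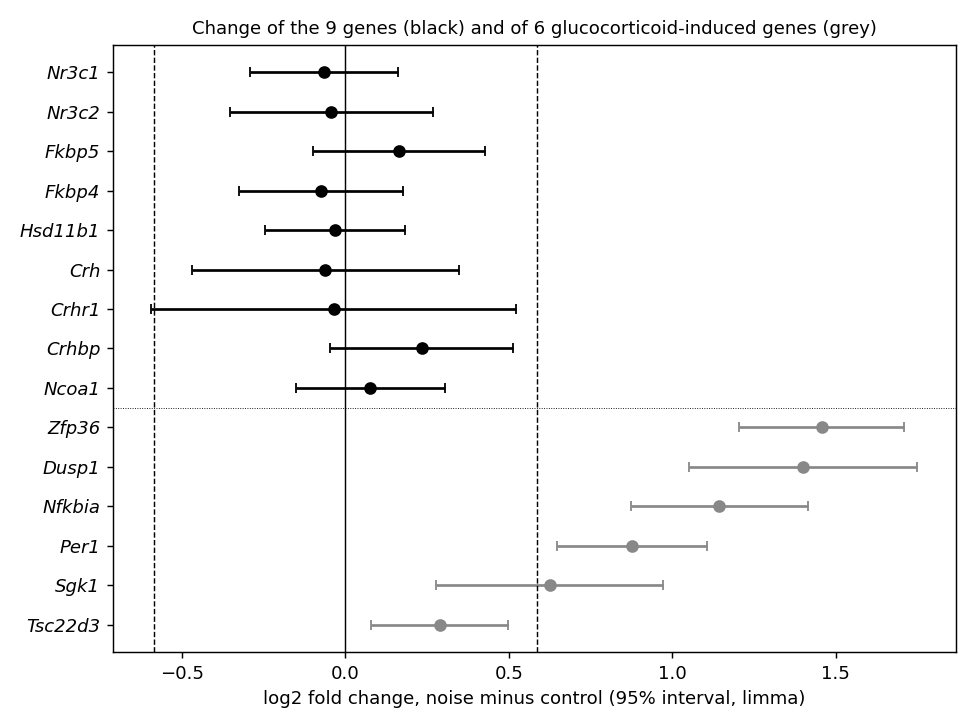
Log2 fold change, noise minus control, with its 95% interval from limma, for the 9 genes (black) and for 6 glucocorticoid-induced genes (grey). Dashed lines mark a fold of 1.5. Every black interval crosses 0 and that of Crhr1 alone reaches past a dashed line, while the intervals of the 6 grey genes lie above 0. The grey genes were picked from 28 measured genes for their own change or as known targets, so they do not represent that list. Other genes of it had intervals that crossed 0, as for Cdkn1a (-0.11 to 0.35), or lay below 0, as for Fam107a (-0.52 to -0.07).

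Both hormone receptors kept similar signals in the groups. Nr3c1, the glucocorticoid receptor, was at 7.73, 7.65 and 7.75 on noise arrays 2, 3 and 4 and at 7.89, 7.71 and 7.72 on control arrays 1, 2 and 6. Control array 1 was the highest of these and the other 5 arrays lay close together. The log2 fold change was -0.07 with a 95% interval of -0.29 to 0.16 (standard error 0.10, adjusted p = 0.85 from limma). Without control array 1 it was -0.01. Nr3c2, the mineralocorticoid receptor, was at 8.34, 8.02 and 8.48 on the noise arrays and at 8.25, 8.34 and 8.39 on the control arrays. The lowest and the highest value both belonged to the noise group, whose SD was 0.24 against 0.07 in the control group (n = 3 each). Its log2 fold change was -0.04 with an interval of -0.35 to 0.27 (standard error 0.13, adjusted p = 0.94 from limma).

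The balance of the receptors was compared within each array as the difference Nr3c1 minus Nr3c2, in which a shift common to both genes cancels. This difference was -0.61, -0.38 and -0.73 on the noise arrays and -0.36, -0.63 and -0.66 on the control arrays. The groups overlapped almost fully. The mean changed by -0.02, with an interval of -0.34 to 0.29 from limma and p = 0.9 in an exact two-sided permutation test, adjusted p = 0.9 over the 2 differences compared in this way. The level of the difference itself has no meaning, since the genes are read by different probes.

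Fkbp5 and Fkbp4 encode immunophilin co-chaperones that occupy the same site on the Hsp90 complex of the receptors. The product of Fkbp5 holds the glucocorticoid receptor in a state of low hormone affinity, and that of Fkbp4 favors its transport to the nucleus. Fkbp5 is itself a well-known target of the glucocorticoid receptor. Its values were 6.73, 6.61 and 6.41 on the noise arrays and 6.34, 6.49 and 6.43 on the control arrays. Noise arrays 2 and 3 were above every control array, and noise array 4 was below control arrays 2 and 6. Its change was 0.16 on the log2 scale, or 1.12-fold, with an interval of -0.10 to 0.43 (standard error 0.11, adjusted p = 0.65 from limma). Without noise array 4 it was 0.25 and without noise array 2 it was 0.09, and it did not pass the thresholds in either case.

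Fkbp4 was at 7.73, 7.81 and 7.56 on the noise arrays and at 7.70, 7.88 and 7.74 on the control arrays. Noise array 4 held the lowest value of both co-chaperones within the noise group. For Fkbp4 the log2 fold change was -0.07 with an interval of -0.33 to 0.18 (standard error 0.11, adjusted p = 0.85 from limma). It was -0.0036 without noise array 4, -0.02 without control array 2 and -0.13 without noise array 3.

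Set against each other within an array, the co-chaperones did separate the groups. Fkbp5 minus Fkbp4 was -0.99, -1.21 and -1.14 on the noise arrays and -1.36, -1.39 and -1.31 on the control arrays. All noise arrays were above all control arrays. The change was 0.24 with an interval of 0.01 to 0.47 from limma (not adjusted), and p = 0.1 in an exact two-sided permutation test, the smallest that 3 arrays against 3 can give. Adjusted over the 2 differences it was p = 0.2 by the same exact test, so the separation did not pass. Leaving out 1 array at a time gave changes between 0.18 and 0.29.

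**Figure D3:**
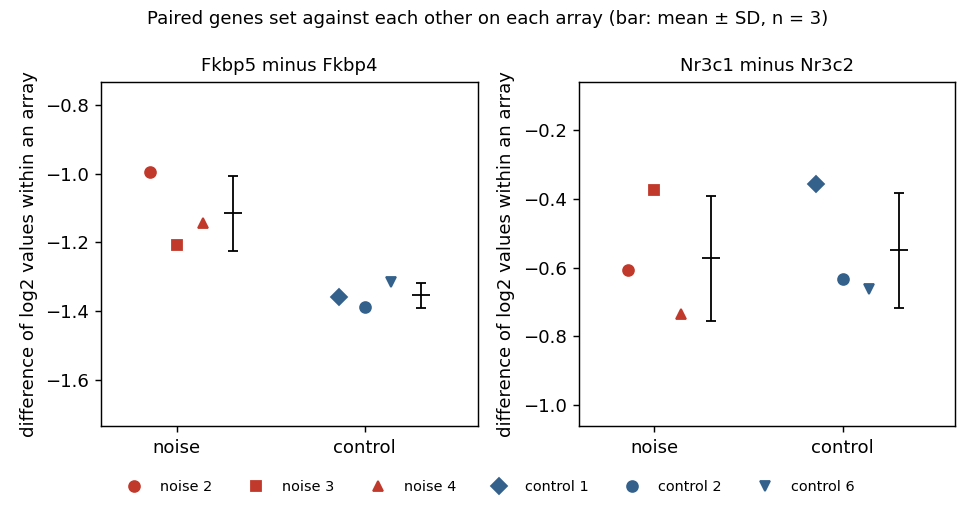
Difference of log2 values within each array for the co-chaperones (Fkbp5 minus Fkbp4) and for the receptors (Nr3c1 minus Nr3c2), noise arrays in red on the left and control arrays in blue on the right, with the mean ± SD (n = 3). The co-chaperone difference averaged -1.12 on noise arrays and -1.35 on control arrays without overlap, whereas the receptor difference averaged -0.57 on noise arrays and -0.55 on control arrays and overlapped.

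Hsd11b1 encodes the dehydrogenase that turns inactive 11-keto steroid back into active corticosterone inside cells, and it was the most even of the genes. It was at 7.35, 7.42 and 7.51 on the noise arrays and at 7.49, 7.43 and 7.46 on the control arrays. The noise arrays lay on both sides of the control arrays. Its residual SD was 0.06, and 6.36% of all clusters had a smaller one. On the log2 scale the change was -0.03 with an interval of -0.24 to 0.18 (standard error 0.09, adjusted p = 0.93 from limma).

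Ncoa1 encodes steroid receptor coactivator 1, which receptors bound to hormone recruit to open chromatin. It was at 8.82, 8.91 and 8.71 on the noise arrays and at 8.79, 8.75 and 8.67 on the control arrays. Noise arrays 2 and 3 were above every control array and noise array 4 lay among them, as they did for Fkbp5. The log2 fold change was 0.08 with an interval of -0.15 to 0.30 (standard error 0.10, adjusted p = 0.82 from limma). It was 0.03 without noise array 3, 0.04 without control array 6 and 0.13 without noise array 4.

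Crh, the releasing hormone itself, was dim. It was at 3.67, 4.19 and 4.23 on the noise arrays and at 4.14, 4.25 and 3.89 on the control arrays, all below the median signal of 5.05. Noise array 2 was lowest and the other noise arrays fell among the controls. No detection calls were used, so that part of such a signal can be background and a true change would be understated. Its log2 fold change was -0.06 with an interval of -0.47 to 0.35 (standard error 0.17, adjusted p = 0.93 from limma).

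Crhr1, the main CRH receptor of the forebrain, was the gene with the widest scatter. It was at 5.07, 6.02 and 5.17 on the noise arrays and at 5.35, 5.56 and 5.46 on the control arrays. Noise array 3 was above all other arrays and noise arrays 2 and 4 were below them, so that the noise SD was 0.52 against 0.11 in the control group (n = 3 each). Of all clusters, 94.2% had a smaller residual SD. The log2 fold change was -0.04 with an interval of -0.59 to 0.52 (standard error 0.24, adjusted p = 0.97 from limma), and a decrease of slightly more than 1.5-fold was therefore not excluded by the interval. Without noise array 3 the log2 fold change was -0.33, which passed the p limit in limma and was short of the fold limit, so that this array decided the value of Crhr1. Noise array 3 also had the highest mean of 18 interneuron markers, 6.78 against 6.57 to 6.69 on the other arrays. It had the lowest mean of 15 principal cell markers, 7.54 against 7.68 to 7.75 on the other arrays. Their part in the value of Crhr1 was not tested.

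Crhbp encodes a secreted protein that binds CRH and keeps it from its receptor, and it had the largest fold change and the smallest p of the 9 genes. It was at 5.73, 5.94 and 5.85 on the noise arrays and at 5.73, 5.68 and 5.41 on the control arrays. Noise arrays 3 and 4 were above every control array, and noise array 2 was just below control array 1. On the log2 scale the change was 0.23, or 1.18-fold, with an interval of -0.05 to 0.51 (standard error 0.12, adjusted p = 0.55 from limma). In an exact two-sided permutation test p was 0.2, and of all clusters 16.3% had a smaller p from limma. Without control array 6 it was 0.13 on the log2 scale, and without noise array 3 it was 0.19. Without control arrays 1 and 2, the arrays with the highest choroid plexus signal, it was 0.43, which passed the p limit but not the fold limit. That setting leaves control array 6 as the only control, the lowest array for Crhbp, and assumes that it varies as the other arrays do. In the forebrain Crhbp is made largely by GABAergic neurons. The mean of the 18 interneuron markers lay between 6.57 and 6.78 on noise arrays and between 6.59 and 6.64 on control arrays. None of them passed the thresholds. All noise arrays were above all control arrays in 3 of the 18 and below them in none, against 8.45% and 8.06% of all clusters. The part of interneurons in the value of Crhbp was not tested.

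The patterns closest to that of Crhbp were looked for among all genes with a single symbol. Over the 6 arrays, after centering each cluster on its mean, the nearest of 15728 genes whose range over the arrays was at least 0.5 of its own were Mkl1, Olr1492 and LOC691995, at root mean square distances of 0.0202, 0.0211 and 0.0257 on the log2 scale. Mkl1, a coactivator of serum response factor, had a noise mean of 6.92 and a control mean of 6.69 and did not pass the thresholds. Olr1492, an olfactory receptor gene, was very dim, with a noise mean of 1.74 and a control mean of 1.47. With 6 arrays and this many genes, some patterns lie this close in any case.

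Cell type markers that bear on where these genes are made were set beside them. None of 18 interneuron, 15 principal cell, 11 astrocyte or 12 microglia markers passed the thresholds, and the medians of the log2 fold change were 0.10, -0.04, 0.04 and 0.06. Those with the smallest p were Dlx6 at 0.23 and Npy at 0.30 for interneurons, Amigo2 at -0.42 and Pcp4 at -0.34 for principal cells, Slc4a4 at -0.24 and Gjb6 at -0.22 for astrocytes, and C1qb at 0.25 and Cx3cr1 at -0.31 for microglia. Hypothalamus and amygdala, where Crh neurons are abundant, were covered by 9 markers, of which none passed. Their mean lay between 4.77 and 4.84 on noise arrays and between 4.61 and 4.74 on control arrays, below the median signal throughout, with Sim1 at 0.54 and Nkx2-1 at 0.16 on the log2 fold change scale. Of the marker lists, only choroid plexus and thalamus and habenula held genes past the thresholds, all of them lower. Those with the smallest p were Ttr at -4.26, Kcnj13 at -2.36, Cldn1 at -0.99 and Igf2 at -0.80 for choroid plexus. For thalamus and habenula they were Gpr151 at -0.91, Lef1 at -0.78, Zic1 at -1.09 and Slc5a7 at -0.71. None of these 8 changes had an adjusted p under 0.05, and the study's own tables hold genes of both lists. In the lists 6 of 19 and 9 of 17 markers did not pass, among them Folr1 at -0.33 and Rgs16 at 0.36.

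In 7 of the 9 the SD was larger on noise arrays than on control arrays, Nr3c1 and Crhbp being the exceptions, and 55.8% of all clusters showed the same. The mean absolute deviation of the 9 genes from their group mean was 0.13, 0.16 and 0.13 on noise arrays 2, 3 and 4 and 0.08, 0.07 and 0.07 on control arrays 1, 2 and 6. Over all clusters it was 0.12, 0.14 and 0.13 on the noise arrays and 0.12, 0.13 and 0.12 on the control arrays. Without Crhr1 the values of the remaining 8 genes were 0.10, 0.10 and 0.12 on the noise arrays and 0.075, 0.066 and 0.077 on the control arrays. Whether the scatter differed between the groups was not tested. Of the 9 genes, 6 had a residual SD below the median of all clusters, which were not matched to them for signal.

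Of 17 other chaperones and co-chaperones of the receptor complex, 16 were measured and none passed the thresholds, with a median log2 fold change of -0.01 against 0.01 over all clusters. None reached an unadjusted p of 0.05 either. The smallest p belonged to Ppid, a further immunophilin of the Hsp90 complex, with a log2 fold change of -0.23 (interval -0.55 to 0.09), and to the heat shock protein Hspa1a, at -0.18 (interval -0.47 to 0.12). Of 20 other nuclear receptor cofactors, all measured, none passed and the median was also -0.01. Here Tdg, a DNA glycosylase that serves as a coactivator, had 0.23 (interval -0.01 to 0.48) and Ncoa4, an androgen receptor coactivator that also directs ferritin to lysosomes, had 0.10 (interval -0.11 to 0.31).

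Of 17 other genes of corticosteroid metabolism and transport, 16 were measured, none passed the thresholds and the median log2 fold change was 0.01. Star, which carries cholesterol into mitochondria for steroid synthesis, was at 4.92, 4.40 and 4.59 on the noise arrays and at 5.12, 5.12 and 5.25 on the control arrays. Its noise arrays were all lower, with a change of -0.52 (interval -0.85 to -0.19, adjusted p = 0.36 from limma), short of the fold threshold. Star was dim, with all noise arrays below the median signal of 5.05, and 9 of the 16 genes averaged below that median. All noise arrays were below all control arrays in 3 of the 16 genes, against 8.06% of all clusters. Abcb1a encodes P-glycoprotein, the pump that keeps many steroids out of the brain, and it was at 7.13, 7.002 and 7.23 on the noise arrays and at 7.32, 7.41 and 7.52 on the control arrays. Here too all noise arrays were lower, with a log2 fold change of -0.30 (interval -0.55 to -0.05, adjusted p = 0.43 from limma). Abcb1b, a close copy that can share probes with it, had a log2 fold change of 0.05. Hsd11b2, which inactivates corticosterone and so opposes Hsd11b1, was the third gene with an unadjusted p under 0.05 and is named because of it. It was at 4.95, 5.31 and 4.78 on the noise arrays and at 4.66, 4.70 and 4.64 on the control arrays. This dim gene was higher on all noise arrays, with a log2 fold change of 0.35 (interval 0.02 to 0.68, adjusted p = 0.48 from limma).

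Other genes of the CRH family and of the pituitary-adrenal axis lay mostly above 0. All 20 were measured and none passed the thresholds, while 17 had a positive log2 fold change and the median was 0.19. In 5 of the 20 all noise arrays were above all control arrays and the unadjusted p was under 0.05, and none had an adjusted p of 0.05 or less. Over all clusters, 8.45% had noise arrays above all control arrays and 10.1% passed the unadjusted p in either direction, and whether the list stands apart from them was not tested. Nr4a1, an orphan nuclear receptor that neurons induce within minutes of stimulation and that acts on steroid-producing genes in the adrenal cortex, was at 7.89, 7.68 and 7.69 on the noise arrays and at 7.22, 7.16 and 7.16 on the control arrays. Its log2 fold change was 0.57 with an interval of 0.34 to 0.80 (adjusted p = 0.28 from limma), just below the fold threshold. Gal, a neuropeptide of stress circuits, was at 5.14, 5.27 and 5.63 on the noise arrays and at 4.87, 4.99 and 4.99 on the control arrays, with a log2 fold change of 0.39 (interval 0.07 to 0.72, adjusted p = 0.43 from limma). The remaining 3, named for this count, were the vasopressin gene Avp at 0.31, the melanocortin receptor gene Mc4r at 0.32 and Npy, a peptide of interneurons, at 0.30. Crhr2, the other CRH receptor, had 0.07, and the ligands Ucn, Ucn2 and Ucn3 had 0.24, 0.41 and 0.17. Pomc, the precursor of the pituitary hormone that CRH releases, had 0.05. Of the 20 genes, 6 averaged below the median signal of 5.05, with Crhr2, Ucn, Ucn2 and Pomc among them. As for Crh, part of such a signal can be background.

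Among further genes that glucocorticoids are known to induce, beside Fkbp5, some passed the thresholds, whereas none of the 9 genes did. Of 30 such genes, 28 were measured, 8 rose at the thresholds, none fell and 20 did not pass, with a median log2 fold change of 0.38. Over all clusters, 0.58% rose and 0.882% fell at these thresholds. All noise arrays were above all control arrays in 16 genes and below them in 2, against 8.45% and 8.06% of all clusters. The 2 lower genes were Fam107a at -0.29 (interval -0.52 to -0.07) and Plin4 at -0.23 (interval -0.54 to 0.07). Whether the list stands apart from all clusters was not tested. The study's own tables, made from these arrays, hold the 8 genes that rose at the thresholds. Those tables had been read when the list was written, so that the direction of the 8 genes is not independent evidence. The metallothionein genes Mt1a, Mt2A and Mt1m, at 1.33, 1.13 and 0.98, are among the 8. The study's pathway analysis placed Per1 under circadian entrainment, Nfkbia under cytokine signaling and Dusp1 under MAPK signaling. What raised the 8 genes was not tested. Zfp36, whose product destabilizes cytokine mRNAs, was 2.75-fold higher in the noise group with a log2 interval of 1.21 to 1.71 (adjusted p = 0.022 from limma), and it was the only gene of that list with an adjusted p under 0.05. The NF-kappaB inhibitor Nfkbia, the phosphatase Dusp1 and the clock gene Per1 had log2 fold changes of 1.14, 1.40 and 0.88, and their intervals began at 0.87, 1.05 and 0.65. Fkbp5, whose interval ended at 0.43, lay below all of these. Tsc22d3, which encodes the glucocorticoid-induced leucine zipper, did not pass, with a log2 fold change of 0.29 and an interval of 0.08 to 0.50 that overlapped that of Fkbp5. Sgk1, a kinase named for its induction by glucocorticoids, had a log2 fold change of 0.63 and an interval of 0.28 to 0.97, which also overlapped that of Fkbp5. Differences between Fkbp5 and these genes were not tested, since they are named here for their own change or as known targets.

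**Figure D4:**
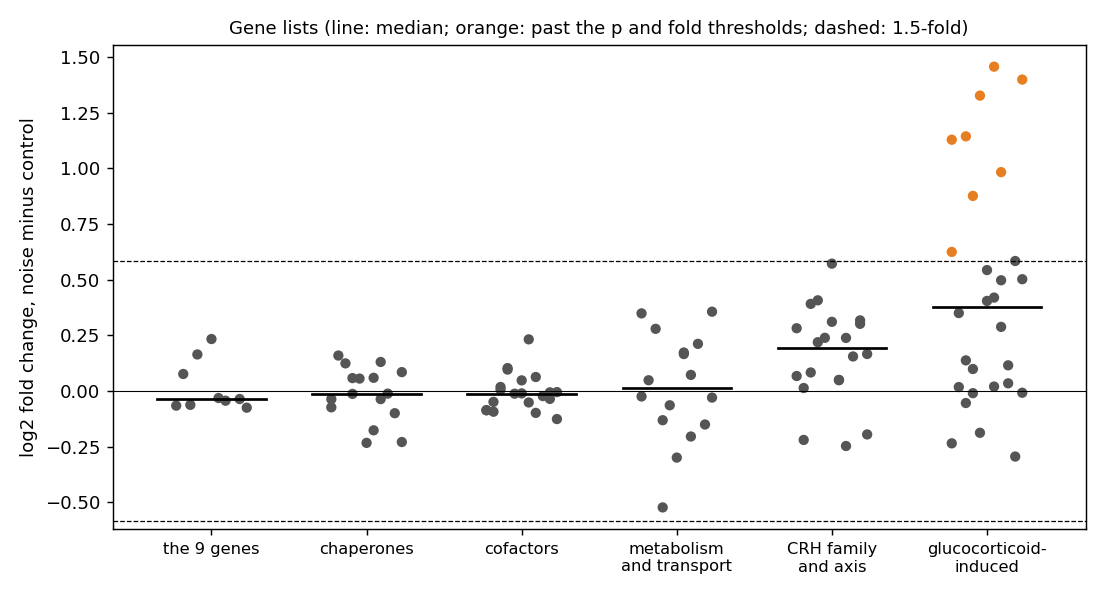
Log2 fold change, noise minus control, of each measured gene in 6 lists, with a black line at the list median, orange points for genes past the p and fold thresholds and dashed lines at a fold of 1.5. The 9 genes, the chaperones and the cofactors lie close to 0 with medians of -0.04, -0.01 and -0.01, and orange points, 8 in number, appear only among the glucocorticoid-induced genes.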

How the data were processed

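Hippocampal RNA of 3 noise and 3 control pools was hybridized to Affymetrix Rat Gene 2.0 ST arrays. The authors deposited log2 values, made in GeneSpring GX with RMA at default settings, and these were used as they stand. The authors' columns of fold change and p-values were not used. Groups follow the sample titles. All 29489 clusters entered a fit in limma 3.58.1 (R 4.3.3, lmFit and eBayes, group as the only term, prior of 3.47 degrees of freedom), without a filter on low values, and p-values were adjusted over all clusters. The brightest cluster with a single symbol stood for a gene, and all 9 symbols were found in the RefSeq gene table. Exact permutation tests over arrays cannot go below p = 0.1. The limma step was tested on simulated data. The genes, lists and tests were chosen with earlier results of these data known. Beyond the 9 genes, each list is represented by up to 4 genes past the thresholds or else by the 2 with the smallest p. Alternatives were the series matrix, repeated quantile normalization, median centering, another variance model, array weights, brighter clusters only, the methods' t-test, the mean of all clusters of a gene and omission of arrays. Precision is limited by the number of arrays, and no labels say whether pools shared a litter or a day.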

Additional observations from a re-analysis of the deposited data

How the results depend on the processing

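None of the 9 genes passed both thresholds under any of the 15 alternatives. The p limit alone was passed by Crhr1 without noise array 3 and by Crhbp without control arrays 1 and 2, a setting added once the data had been seen, which leaves 1 control array. In that setting Crh was at 0.14. The receptor difference Nr3c1 minus Nr3c2 was 0.0896 there. Among 54 values with 1 array left out, 7 changed sign. The ranges of the log2 fold changes concerned were -0.144 to 0.0862 for Nr3c2, -0.0737 to 0.00729 for Hsd11b1, -0.164 to 0.12 for Crh and -0.334 to 0.138 for Crhr1, and -0.121 to 0.0747 for the receptor difference, so their directions are not settled. The cause was not tested. Most other settings say nothing about direction: another variance model, brighter clusters and the methods' t-test use the same group means, each gene had 1 cluster, and the series matrix and centered arrays held the same values. Array weights and repeated quantile normalization turned no direction. Crh was not tested among brighter clusters. The co-chaperone difference was 0.20 without control arrays 1 and 2. No paired analysis was made, since the groups hold different rats and neither the labels nor the methods pair their arrays.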
